A study of Mus musculus with 22 samples.

Results

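Psca and its relatives of the Ly6/uPAR family were followed through mpkCCD cells, immortalised mouse cells that derive from the renal cortical collecting duct. The 9 genes, taken from the deposited table by their symbols, were Psca (ENSMUSG00000022598), Ly6a (ENSMUSG00000075602), Ly6c1 (ENSMUSG00000079018), Ly6d (ENSMUSG00000034634), Ly6e (ENSMUSG00000022587), Lypd2 (ENSMUSG00000022595), Lypd3 (ENSMUSG00000057454), Lypd6b (ENSMUSG00000026765) and Plaur (ENSMUSG00000046223). They are 9 of the 54514 gene entries of the table. The genes were chosen by their symbols and family, but also by measured values, since the difference of Psca between sorted fractions and its dependence on the clone were known at that time. Values from the sorted fractions are therefore given below as a description without a test. The rule did not use the dDAVP comparison in unsorted cells, and the genes were tested there, although earlier results of these libraries were known when the genes were chosen.

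The 22 libraries fall into 10 groups. Unsorted wild-type (WT) mpkCCD cells received vehicle (3 libraries, also labelled as no treatment) or dDAVP (3 libraries), the vasopressin analogue desmopressin that acts on the V2 receptor. The reporter clones C1, C11, C43 and C50, in which GFP reports on the water channel gene Aqp2, all received dDAVP and were sorted by GFP, which gave 2 GFP-negative and 2 GFP-positive libraries per clone. Each clone is a single clonal line, so a difference between clones is a difference between lines, and no clone library without dDAVP was analysed here. The labels name 0.1 and 1 nM dDAVP for 24 or 48 hours without assigning these to libraries, and they do not say whether replicates came from separate cultures. The p-values below therefore measure only the spread between these libraries, which may be technical.

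The Ly6/uPAR genes encode small surface or secreted proteins built from a disulfide-rich fold shared with snake venom toxins, most of them held to the outer membrane by a glycosylphosphatidylinositol (GPI) anchor. They work as receptors, as modulators of nicotinic acetylcholine receptors, or as markers by which epithelial and blood cells are sorted. Psca, prostate stem cell antigen, marks epithelia of the prostate, bladder and stomach. Plaur, the urokinase receptor, concentrates the protease urokinase at the cell surface and binds vitronectin and integrins.

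Expression is given as TPM, a transcript abundance that the authors scaled per transcript length and to the same sum in each library, so levels can be compared between genes and sequencing depth is unknown. Between 12293 and 14341 genes per library had a TPM of at least 1. Transcripts of ribosomal protein genes made up 8.40% of TPM in GFP-negative replicate 1 of C50 and 3.89% to 6.18% in the other 21 libraries. The labels were checked by Aqp2 and GFP. Mean Aqp2 was 69.1 TPM in the 3 vehicle libraries and 2868 TPM in the 3 dDAVP libraries, and it was higher in the GFP-positive fraction in 8 of 8 library pairs. GFP was 8.11 to 16.4 TPM in the GFP-negative and 1114 to 1496 TPM in the GFP-positive fractions, as means of 2 libraries. The principal cell markers Aqp2, Avpr2, Gata3 and Fxyd4 were present throughout, whereas Scnn1b and Elf5 never reached a TPM of 1. Aqp3 and Aqp4 were low, with medians of 1.33 and 0.85 TPM. Of the 10 principal cell markers limma tested 8 between the fractions, and with GFP 6 rose and 1 fell at an adjusted p under 0.05. Their median difference was 1.03 on the log2(TPM + 1) scale, against -0.06 for all genes. Mean Aqp3 was 2.21 TPM in GFP-negative and 0.975 TPM in GFP-positive libraries (n = 8 each). Of the markers of other cell types, 7 of 8 fibroblast, 6 of 8 endothelial, 5 of 8 leukocyte, 5 of 8 intercalated cell and 5 of 6 proximal tubule markers never reached a TPM of 1 in any library. Others were expressed: the endothelial marker Egfl7 had a median of 63.0 TPM, and the intercalated cell marker Atp6v1b1 had a median of 57.4 TPM. Atp6v1b1 (0.81, limma adjusted p = 0.00899), the intercalated cell marker Aqp6 (0.53, limma adjusted p = 0.0264) and the proximal tubule marker Lrp2 (0.56, limma adjusted p = 0.00525) were higher in GFP-positive cells, and their part in the results below was not tested. These calls passed in 28 of 29, 15 of 28 and 27 of 29 alternatives.

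Levels of the 9 genes covered a wide range. Plaur was the most abundant, with a median of 552 TPM over the 22 libraries and a range of 463 to 783 TPM. Ly6e followed with a median of 149 TPM, Lypd3 with 69.0 TPM and Psca with 30.4 TPM. Lypd2 had a median of 13.5 TPM, Lypd6b of 11.9 TPM and Ly6a of 2.03 TPM. Ly6c1, an antigen of monocytes and endothelium, was listed at 0 in 13 of 22 libraries and reached 0.39 TPM at most. Ly6d, a marker of early lymphoid cells and keratinocytes, was listed at 0 in 20 libraries and reached 0.15 TPM at most. Neither passed the filter of a mean TPM of at least 1 in either comparison, and the other 7 genes passed it in both.

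**Figure D1:**
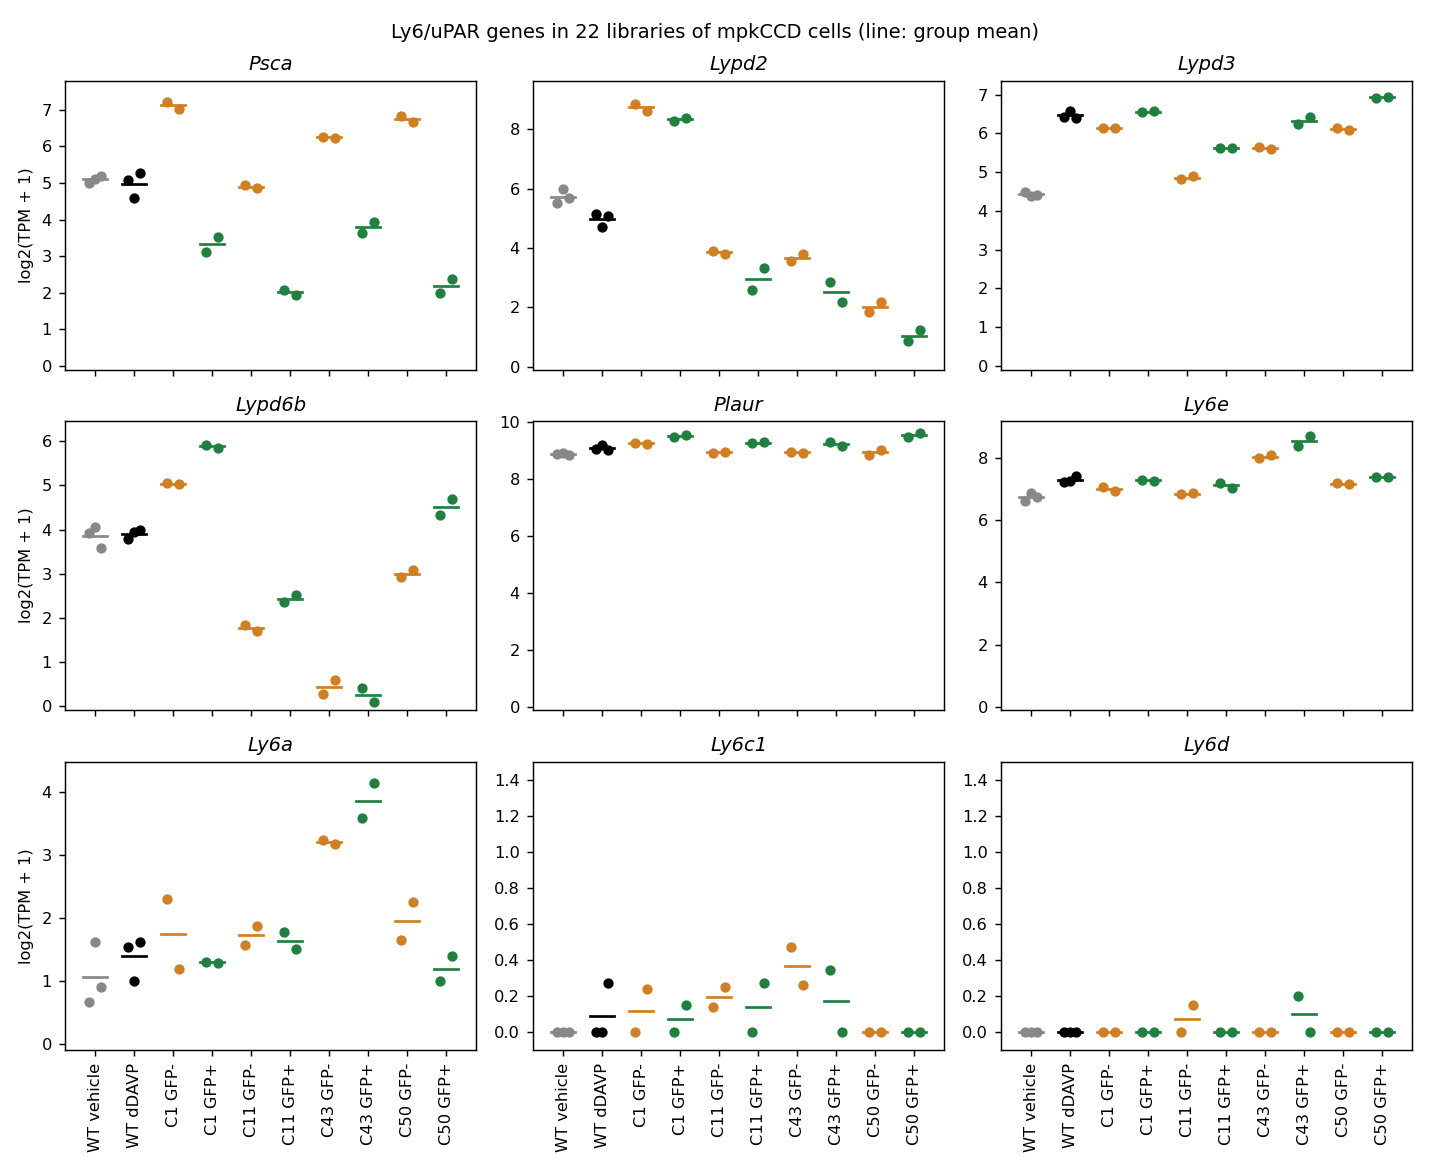
Expression of the 9 genes as log2(TPM + 1), on an axis of its own for each gene, in the 10 groups; points are libraries (3 per WT group, 2 per clone and fraction) and lines are group means. Psca was lower in the GFP-positive (green) than in the GFP-negative (orange) libraries of every clone, Lypd2 was highest in C1, and Plaur spanned 463 to 783 TPM over all libraries.

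Promoter sequences were taken from a RefSeq table (build GRCm38.p6), in which 3 of the 9 genes were matched, in windows of 250 bases before to 50 bases after the transcription start. The window of Ly6c1, which reached 0.39 TPM at most, is not shown, and its matches are not given. The windows of Plaur and Lypd3 are shown because these 2 genes lie close together on chromosome 7 and were both higher in the GFP-positive fraction of every clone, and because Lypd3 rose with dDAVP. Both strands were searched for the cAMP response element TGACGTCA, its core TGACG, which the full element also holds, and the AP-1 site TGANTCA. Capitals mark the match. The Plaur window, chr7:24462233-24462532 on the plus strand, held 1 AP-1 site that begins 69 bases before the start:
Plaur: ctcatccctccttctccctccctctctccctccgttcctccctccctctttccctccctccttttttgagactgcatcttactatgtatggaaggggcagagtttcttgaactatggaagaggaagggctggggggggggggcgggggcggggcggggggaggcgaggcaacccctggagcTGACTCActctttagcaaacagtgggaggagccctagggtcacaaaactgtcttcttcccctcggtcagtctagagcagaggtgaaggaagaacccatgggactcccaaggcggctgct
The Lypd3 window, chr7:24636320-24636619 on the plus strand, held 1 core that begins 145 bases before the start and no full element:
Lypd3: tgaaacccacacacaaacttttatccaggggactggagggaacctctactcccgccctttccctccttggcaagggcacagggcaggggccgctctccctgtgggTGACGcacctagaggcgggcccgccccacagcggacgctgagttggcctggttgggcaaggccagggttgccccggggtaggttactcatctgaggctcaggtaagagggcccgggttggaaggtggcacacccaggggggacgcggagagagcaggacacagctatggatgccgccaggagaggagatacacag
Of the 32851 promoter windows of the same length, 1.79% held the full element, 20.8% the core and 7.81% the AP-1 site. Matches are letters in a window, and binding was not measured.

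The first comparison asks which of these genes differed between dDAVP and vehicle in unsorted WT cells. Lypd3 rose 4.26-fold and Ly6e rose with dDAVP, Lypd2 fell, and Psca, Plaur, Lypd6b and Ly6a did not pass the test. Thus 3 of the 7 genes tested were called, 2 higher and 1 lower, by limma on log2(TPM + 1) with Benjamini-Hochberg adjusted p under 0.05. Over all 13494 genes tested 8.88% were called, 2.37% higher and 6.51% lower. The median change of all genes was -0.16 on the log2(TPM + 1) scale, and median-ratio scaling between libraries moved it to -0.00. That scaling also changed the share of called genes that were higher from 26.7% to 59.6%.

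Lypd3, a GPI-anchored protein of stratified epithelia also known as C4.4A, was 21.3, 20.1 and 20.4 TPM in the vehicle libraries and 85.6, 94.3 and 83.2 TPM in the dDAVP libraries. Every dDAVP library lay far above every vehicle library. The means were 20.6 ± 0.637 TPM and 87.7 ± 5.85 TPM (SD, n = 3 each). The log2(TPM + 1) values differed by 2.04 ± 0.082 (SE, limma adjusted p = 6.38e-05). The call held in 15 of 15 alternative settings, with log2 changes of 1.98 to 2.20.

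Ly6e, an interferon-inducible GPI-anchored protein that limits entry of some viruses, was 98.0, 116 and 107 TPM with vehicle and 150 (149.89), 152 and 169 TPM with dDAVP. The groups did not overlap. On the log2(TPM + 1) scale dDAVP raised it by 0.55 ± 0.0893 (SE, limma adjusted p = 0.0147). It missed the threshold without dDAVP replicate 3 (limma adjusted p = 0.0684) and without vehicle replicate 3 (limma adjusted p = 0.0578).

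Lypd2, a small GPI-anchored relative whose function is little known, was 44.5, 62.3 and 50.5 TPM with vehicle and 34.3, 25 and 32.6 TPM with dDAVP. The groups did not overlap, and the change on the log2 scale was -0.75 ± 0.160 (SE, limma adjusted p = 0.0337). The call was lost on leaving out any one WT library other than dDAVP replicate 2 (limma adjusted p = 0.0515 to 0.0931). After median-ratio scaling the change was -0.59 (limma adjusted p = 0.148).

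Plaur was 476, 482 and 463 TPM with vehicle and 532, 598 and 519 TPM with dDAVP. All 3 dDAVP libraries were above all 3 vehicle libraries, which was so in either direction for 35.8% of genes tested and for 4 of the 7 genes here. The difference of 0.21 ± 0.0721 (SE) on the log2 scale did not pass (limma adjusted p = 0.102).

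Psca was 31.0, 33.5 and 35.8 TPM with vehicle and 32.7, 23.3 and 37.6 TPM with dDAVP. The groups overlapped, with means of 33.4 ± 2.41 TPM and 31.2 ± 7.28 TPM (SD, n = 3 each). On the log2 scale they differed by -0.12 ± 0.169 (SE, limma adjusted p = 0.646). Its sign turned without dDAVP replicate 2 (0.070) and after median-ratio scaling (0.047) or quantile normalization (0.067). Lypd6b, a modulator of nicotinic receptors, differed by 0.04 (standard error 0.143, limma adjusted p = 0.851) and Ly6a by 0.32 (standard error 0.342, limma adjusted p = 0.534). These misses of the threshold do not show that the genes were alike in both groups.

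**Figure D2:**
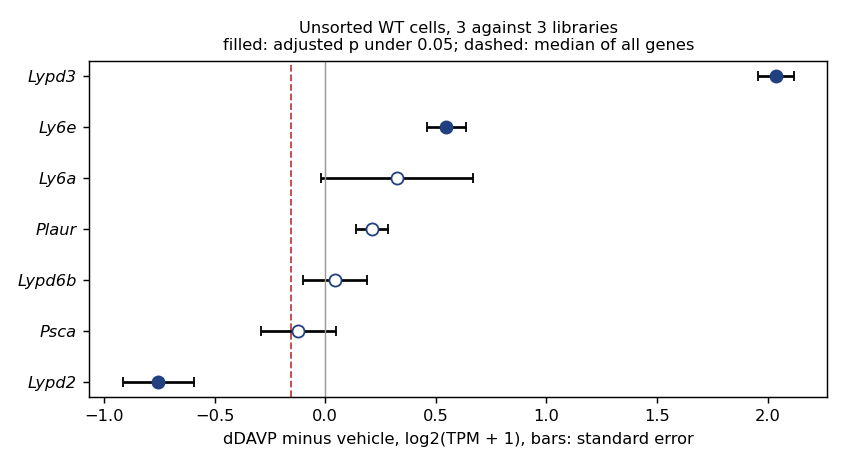
Change of the 7 genes that passed the filter with dDAVP in unsorted WT cells, as dDAVP minus vehicle on the log2(TPM + 1) scale (3 against 3 libraries); bars are standard errors, filled points have an adjusted p under 0.05, and the dashed line is the median of all genes at -0.16. Lypd3 at 2.04 and Ly6e at 0.55 were called higher and Lypd2 at -0.75 was called lower.

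The second comparison sets GFP-positive against GFP-negative cells of the same clone, all given dDAVP. Psca was lower in the GFP-positive fraction of every clone, and Lypd2 was lower too. Lypd3, Plaur and Ly6e were higher in the GFP-positive fraction of every clone, Lypd6b was higher in 3 clones, and Ly6a went in different directions. Fractions of a clone that did not overlap, with the GFP-positive fraction higher in all 4 clones, were found for 6.72% of the 13113 genes tested, and with it lower in all 4 clones for 12.2%. These shares are the background for the counts, which the choice of the genes partly fixed. By limma 35.3% of genes were called, 12.1% higher and 23.2% lower, and the share of called genes that were higher was 34.2% as deposited and 50.9% after median-ratio scaling. In these bulk libraries fewer cells with a transcript and less transcript per cell cannot be told apart.

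In C1 Psca was 149 and 129 TPM in the GFP-negative and 7.73 and 10.4 TPM in the GFP-positive libraries. In C50 it was 114 and 101 TPM against 2.96 and 4.18 TPM. These clones had the highest GFP-negative levels. In C43 Psca was 76.0 and 74.5 TPM in the GFP-negative and 11.5 and 14.3 TPM in the GFP-positive libraries. In C11 it was 29.8 and 28.1 TPM against 3.25 and 2.85 TPM. The GFP-negative libraries of C11 thus lay within the span of the WT dDAVP libraries, while those of the other 3 clones lay above all 6 WT libraries. In every clone the GFP-positive libraries lay below every WT library. Clone and WT libraries differ in clonal origin, the reporter and sorting, and these cannot be told apart here.

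The GFP-negative fraction held 30.02 times as much Psca as the GFP-positive fraction in C50, 15.3 times in C1, 9.50 times in C11 and 5.82 times in C43, as ratios of mean TPM. On the log2(TPM + 1) scale the differences were -4.58 in C50, -3.80 in C1, -2.89 in C11 and -2.46 in C43, a span of 2.12, with a mean of -3.43 ± 0.946 (SD over 4 clones). The order of the clones was the same under 19 of 19 alternative settings, 16 of which only left out 1 of these libraries. Replicates of a clone and fraction had a standard deviation of 0.174 on this scale. Psca was chosen with this difference in view, so its rank among all genes is a description. Of the 13113 genes, 4 had a lower mean difference than Psca. Within a clone 4 genes lay lower in C50, 7 in C1, 21 in C11 and 75 in C43. Without GFP-negative replicate 1 of C50, the library with the high ribosomal share, the C50 difference was -4.49.

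The order of the clones was not the same for Psca and Aqp2. The GFP-positive fraction of C1 held 29.0 times the Aqp2 of its GFP-negative fraction. For C11 this ratio was 12.0, for C43 it was 4.28 and for C50 it was 3.74. C50, with the largest Psca ratio between its fractions, thus had the smallest Aqp2 ratio, while C1 was high in the order for both. In TPM the Psca difference was largest in C1 (-130 against -104 in C50). The Aqp2 difference in TPM was smallest in C1 (1947.5 against 3408.4 in C50). In the GFP-negative fraction Aqp2 was 69.5 ± 4.29 TPM in C1 and 249 ± 19.2 TPM in C11 (SD, n = 2 each). It was 1624 ± 79.1 TPM in C43 and 1243 ± 16.2 TPM in C50 (SD, n = 2 each). With 4 clones no relation between the 2 genes was tested.

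**Figure D3:**
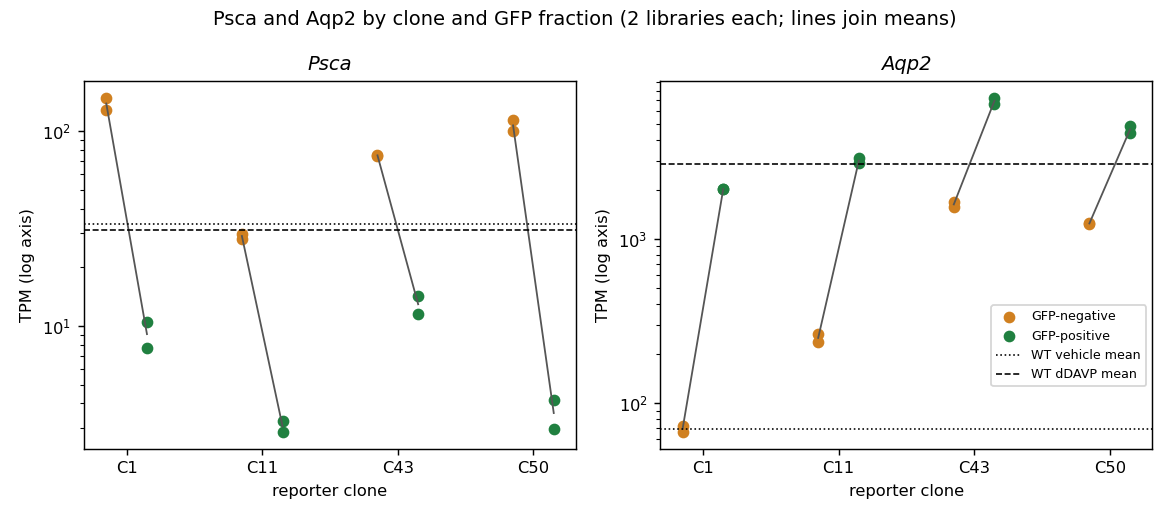
Psca and Aqp2 in TPM on log axes for the GFP-negative (orange) and GFP-positive (green) fractions of the 4 clones; points are libraries (2 each), lines join the means, and horizontal lines are the WT means. The fall of Psca was steepest in C50 (107 to 3.57 TPM) and shallowest in C43 (75.2 to 12.9 TPM), while the rise of Aqp2 was steepest in C1.

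Across the 10 groups mean Psca ran from 139 ± 13.9 TPM in C1 GFP-negative to 107 ± 9.27 in C50 GFP-negative and 75.2 ± 1.05 in C43 GFP-negative (SD, n = 2 each). WT vehicle, WT dDAVP and C11 GFP-negative (29.0 ± 1.21 TPM) came next and overlapped with their neighbours in this order. C43 GFP-positive (12.9 ± 1.99 TPM) and C1 GFP-positive (9.08 ± 1.91 TPM) followed. C50 GFP-positive (3.57 ± 0.863 TPM) and C11 GFP-positive (3.05 ± 0.283 TPM) were lowest and overlapped. The highest group mean was 45.5 times the lowest.

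The 5 genes whose log2(TPM + 1) group means were most like those of Psca, by Pearson correlation over the 10 groups among 10293 genes, were Filip1l (0.98), Cib2 (0.97), Hspb1 (0.97), Anxa1 (0.96) and Ifi202b (0.96). The groups share clones and the fraction sort, so these correlations describe a pattern. Hspb1 is a small heat shock protein and Anxa1 a calcium-dependent phospholipid-binding protein. Anxa1, the most abundant of the 5, had mean levels from 187 TPM in C50 GFP-positive to 846 TPM in C1 GFP-negative. Of the other 8 genes of the family, none had a correlation with Psca above 0.33, which was that of Lypd2, and Plaur had the lowest at -0.65.

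Lypd2 was lower in the GFP-positive fraction of every clone, yet it differed far more between clones than between fractions. In C1 it was 464 and 395 TPM in the GFP-negative and 314 and 334 TPM in the GFP-positive libraries. In all other libraries, WT included, it was 0.80 to 62.3 TPM. C1 was thus apart from everything else in both fractions. In C11 it was 13.99 and 13.0 TPM against 4.94 and 9.03 TPM, and in C43 it was 10.7 and 12.8 TPM against 6.17 and 3.54 TPM. In C50 it was 2.58 and 3.48 TPM against 0.80 and 1.37 TPM. The log2 differences were -0.40 (C1), -0.91 (C11), -0.96 (C50) and -1.16 (C43), whereas the highest GFP-negative clone mean was 142 times the lowest. Slurp1, the neighbouring gene for a secreted family member, was named after its values were seen. It was 8.74 to 12.4 TPM in C1 and 0 to 2.13 TPM in the other libraries.

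Lypd6b likewise differed more between clones than between fractions. It was 32.1 and 31.5 TPM in the GFP-negative and 59.4 and 57.0 TPM in the GFP-positive libraries of C1. In C50 it was 6.55 and 7.41 TPM against 19.0 and 24.9 TPM, and in C11 it was 2.55 and 2.22 TPM against 4.14 and 4.66 TPM. In these 3 clones the GFP-positive libraries were higher without overlap, by 0.85, 1.51 and 0.67 on the log2 scale. In C43 all 4 libraries were between 0.05 and 0.50 TPM and the fractions overlapped, against 2.22 TPM or more in every other library. C43 therefore had almost none of this transcript, in either fraction.

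Lypd3 was 69.1 and 69.0 TPM in the GFP-negative and 92.3 and 95.4 TPM in the GFP-positive libraries of C1. It was 69.0 and 67.7 TPM against 121 and 122 TPM in C50, and 48.9 and 47.4 TPM against 74.2 and 84.2 TPM in C43. In C11, the clone with the lowest level, it was 27.5 and 28.7 TPM against 48.3 and 48.6 TPM. The GFP-positive libraries were higher in each clone, from 0.44 (C1) over 0.70 (C43) and 0.77 (C11) to 0.82 (C50) on the log2(TPM + 1) scale. All 16 clone libraries lay above the vehicle libraries of WT cells, whose highest value was 21.3 TPM. The clone libraries differ from these in dDAVP, clonal origin, the reporter and sorting, and these cannot be told apart here. The genes most like Lypd3 over the 10 groups, outside the naming rule and picked after their values were seen, were Cited1 (Pearson correlation 0.97) and the metallothionein Mt1 (0.97).

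Plaur varied least. Its highest clone mean was 1.25 times its lowest in either fraction. In C1 it was 617 and 612 TPM in the GFP-negative and 718 and 758 TPM in the GFP-positive libraries, and in C50 it was 468 and 525 TPM against 722 and 783 TPM. In C11 it was 489 and 497 TPM against 617 and 632 TPM, and in C43 it was 499 and 491 TPM against 630 (629.51) and 572 TPM. The GFP-positive libraries were higher in each clone, by 0.26 (C1), 0.28 (C43), 0.34 (C11) and 0.60 (C50) on the log2 scale.

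**Figure D4:**
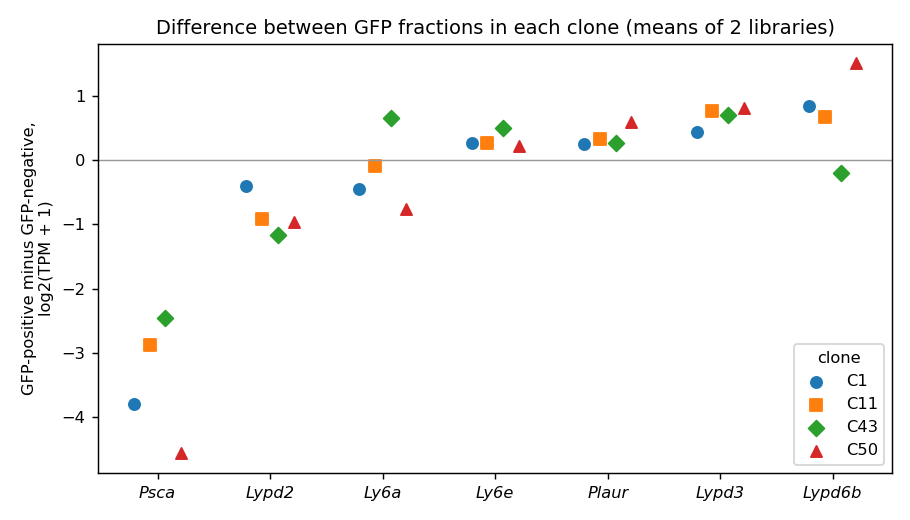
Difference between the GFP-positive and GFP-negative fraction on the log2(TPM + 1) scale for the 7 genes that passed the filter, 1 point per clone (means of 2 libraries per fraction). Psca lay between -4.58 and -2.46, Lypd2 between -1.16 and -0.40, and Lypd3, Plaur and Ly6e above 0 in all 4 clones.

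Most tested proteases and partners of the urokinase receptor were lower in GFP-positive cells, where Plaur lay higher. Of 18 genes of this list 11 were tested between the fractions, and limma called 7 lower and 0 higher in GFP-positive cells (7 and 0 at an unadjusted p under 0.05), beside 23.2% of all genes called lower, with a median of -0.50 against -0.06 for all genes. Plat, the tissue plasminogen activator, was 5.91 ± 4.74 TPM in GFP-negative and 1.22 ± 1.18 TPM in GFP-positive libraries (SD, n = 8 each), which is -1.51 ± 0.173 (SE) on the log2 scale (limma adjusted p = 1.32e-05). Lrp1, an endocytic receptor that clears urokinase complexes from the cell surface, differed by -1.16 (limma adjusted p = 2.68e-06).

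Plau, the ligand urokinase itself, was named after its values were seen. Its mean was 19.3 TPM in GFP-negative and 11.5 TPM in GFP-positive libraries of C1. It was 8.26 TPM against 4.04 TPM in C11, 12.0 TPM against 3.40 TPM in C43 and 19.0 TPM against 8.33 TPM in C50. The log2 difference was -1.06 (limma adjusted p = 6.04e-05), so the transcript of the ligand was lower, while that of its receptor, which had no test here, lay higher in GFP-positive cells of each clone. In WT cells 11 genes of the list were tested with dDAVP, and limma called 0 higher and 1 lower (0 and 3 at an unadjusted p under 0.05), beside 8.88% of all genes called, with a median of -0.21 against -0.16 for all genes. That gene was the integrin subunit Itgb6 (-0.78, limma adjusted p = 0.00978).

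**Figure D5:**
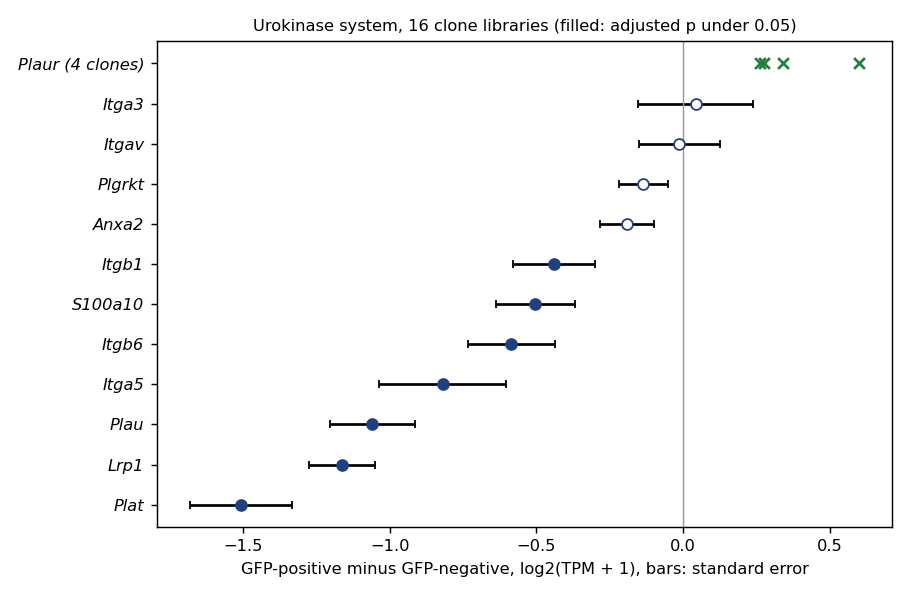
GFP-positive minus GFP-negative difference on the log2(TPM + 1) scale for the 11 tested genes of the urokinase system over 16 clone libraries; bars are standard errors, filled points have an adjusted p under 0.05, and crosses are Plaur in each of the 4 clones. The 7 called genes lay below 0, down to -1.51 for Plat, and the 4 Plaur values lay above 0.

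Ly6e and Ly6a shared a clone pattern. Ly6e was 254 and 275 TPM in the GFP-negative and 333 and 422 TPM in the GFP-positive libraries of C43, and 98.0 to 169 TPM in all 18 other libraries. Ly6a, the stem cell antigen Sca-1, was 8.46 and 7.99 TPM against 11.1 and 16.6 TPM in C43, and 0.59 to 3.94 TPM elsewhere. C43 was apart from every other library for both genes. Their correlation over the 10 group means was 0.88, a value that includes the C43 groups, the highest for both genes. The order of the other groups differed: C50 GFP-positive had rank 3 for Ly6e and rank 9 for Ly6a. Ly6e was 135 and 121 TPM in the GFP-negative and 156 and 154 TPM in the GFP-positive libraries of C1. It was 113 and 116 TPM against 147 and 130 (130.19) TPM in C11, and 144.4 and 144.0 TPM against 168 and 169 TPM in C50. Its log2 differences were 0.22 (C50), 0.27 (C11), 0.28 (C1) and 0.50 (C43), higher in GFP-positive cells without overlap in each clone. Ly6a differed by 0.66 in C43 and by -0.76 in C50 without overlap, and its fractions overlapped in C1 and C11. Ly6a has close paralogs in the same cluster, and how reads were divided among them was not measured here, so its level is uncertain.

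Transcripts of interferon-induced genes, a class to which Ly6e belongs, were also highest in C43. The summed level of the 24 listed genes was 818 TPM in GFP-negative and 1158 TPM in GFP-positive cells of C43, and 427 to 632 TPM in the other 8 groups. Between the fractions 6 of 22 tested genes were higher and 1 lower (10 and 1 at an unadjusted p under 0.05), beside 12.1% of all genes called higher and 23.2% lower, with a median of 0.21 against -0.06 for all genes. Ifit1 rose by 0.69 (limma adjusted p = 7.99e-07), Irf9 by 0.57 (limma adjusted p = 0.000222) and Ifit3 by 0.48 (limma adjusted p = 0.000466), while the tethering factor Bst2 fell by 0.46 (limma adjusted p = 0.00399). With dDAVP in WT cells limma called 0 of 22 higher and 1 lower (0 and 5 at an unadjusted p under 0.05), beside 2.37% of all genes called higher and 6.51% lower. The gene called was Ifit2 (-0.74, limma adjusted p = 0.0105). The median there was -0.19 against -0.16 for all genes. The part of these genes in the Ly6e level was not tested. Ly6a and Ly6c1 are also surface antigens of blood cells, and the summed level of 8 leukocyte markers was 0.09 to 5.18 TPM in GFP-negative and 0.36 to 3.85 TPM in GFP-positive libraries.

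Of 36 other genes of the family, 7 were tested with dDAVP and 10 between the fractions. With dDAVP limma called 0 of them, beside 8.88% of all genes called, with a median of 0.03 against -0.16 for all genes, and at an unadjusted p under 0.05 it found 0 higher and 1 lower. Between the fractions 3 of 10 were higher and 0 lower, beside 12.1% of all genes called higher and 23.2% lower, with a median of 0.35 against -0.06 for all genes. Ly6g2 was 1.22 ± 1.503 TPM in GFP-negative and 3.87 ± 5.07 TPM in GFP-positive libraries (SD, n = 8 each, 2 per clone), a log2 difference of 0.80 (limma adjusted p = 0.00187), and it was highest in GFP-positive C43 at 8.72 and 14.3 TPM. With the clone means as replicates the adjusted p of limma was 0.0505, and how reads were divided among Ly6g2 and its paralogs was not measured here. Ly6g6d rose by 0.49 (limma adjusted p = 0.0137), a call that was lost without clone C11 (limma adjusted p = 0.118). Lypd6, the close relative of Lypd6b and likewise a modulator of nicotinic receptors, differed by 0.85 (limma adjusted p = 0.0349). That call passed in 15 of 28 alternatives and was lost on leaving out C1 GFP-negative replicate 1, C11 GFP-positive replicate 1, C43 GFP-negative replicate 1, C50 GFP-negative replicate 2 or any GFP-positive library of C1 or C50 (limma adjusted p = 0.0547 to 0.0756). Cd59a, the inhibitor of the complement membrane attack complex, was expressed at 41.6 to 70.9 TPM in all 22 libraries. Lypd9, Lypd10, Cd177 and Gml were listed at 0 in all of them.

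In the RefSeq gene order of GRCm38.p6, Psca, Lypd2, Ly6d, Ly6e, Ly6a and Ly6c1 lie in one stretch of chromosome 15, Plaur and Lypd3 on chromosome 7 and Lypd6b on chromosome 2. Between Psca and Ly6c1 lie 12 genes that are not among the 9, of which 3 were tested between the fractions and 1 was called. That gene, Them6, is the next after Psca and differed by -1.48 (limma adjusted p = 3.56e-06), from 8.0025 ± 2.38 TPM to 2.22 ± 0.902 TPM (SD, n = 8 each, 2 per clone). Psca, Them6 and Lypd2 were thus lower in GFP-positive cells, whereas Ly6e in the same stretch was higher and Ly6a went in different directions. Over the wider list of genes around this cluster 15 were tested, with 3 higher, 4 lower and a median of -0.05, beside 35.3% of all genes called and a median of -0.06. The least stable lower calls passed in 7 and 10 of 29 alternatives, and the least stable higher call in 19 of 29. Ptp4a3, a phosphatase, rose by 1.16 (limma adjusted p = 7.19e-06) and Rhpn1 fell by 0.63 (limma adjusted p = 0.00236). With dDAVP 14 were tested, with 1 higher and 2 lower, beside 8.88% of all genes called. Between Plaur and Lypd3 lie 8 genes, 6 of them tested. Of these 2 were lower in GFP-positive cells and 0 higher, beside 35.3% of all genes called. The larger of these falls, named after its value was seen, was that of Zfp428 (-0.68, limma adjusted p = 0.000124).

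Genes that attach and trim the GPI anchor were called about as often as all genes. With dDAVP 1 of 13 tested was lower, beside 8.88% of all genes called. It was Mppe1 (-0.41, limma adjusted p = 0.0471), a call that was lost on leaving out any one WT library other than dDAVP replicate 2 (limma adjusted p = 0.103 to 0.158). Between the fractions 2 of 13 were higher and 3 lower, beside 35.3% of all genes called, with a median of -0.06, as over all genes. Pgap1, which removes an acyl chain from the new anchor, rose by 0.78 (limma adjusted p = 0.0139), a call that was lost without clone C1 (limma adjusted p = 0.0601). Gpaa1, a subunit of the transamidase that attaches the anchor, fell by 0.42 (limma adjusted p = 0.000653).

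Psca, Lypd3 and Ly6d are also known from stratified and urothelial epithelia. Of 23 other genes of such epithelia 7 were tested between the fractions, and the rest did not reach a mean TPM of 1 in the clone libraries. Of those tested 4 were higher and 2 lower with a median of 0.40, beside 12.1% of all genes called higher and 23.2% lower and a median of -0.06. The least stable higher call passed in 10 of 29 alternatives, and the least stable lower call in 17 of 29. The mucin Muc4 rose by 1.32 (limma adjusted p = 0.000170) and the uroplakin Upk2 by 1.00 (limma adjusted p = 8.78e-05), whereas Sfn, the epithelial 14-3-3 protein stratifin, fell by 1.86 (limma adjusted p = 3.83e-08). With dDAVP 8 were tested, with 2 higher and 1 lower and a median of 0.11, beside 2.37% of all genes called higher and 6.51% lower and a median of -0.16. Muc4 rose by 1.26 there as well (limma adjusted p = 0.0135), a call that was lost without vehicle replicate 2 (limma adjusted p = 0.0524) or replicate 3 (limma adjusted p = 0.0551). The uroplakin Upk3a fell by 1.20 with dDAVP (limma adjusted p = 0.0272), a call that passed in 7 of 14 alternatives and was lost on leaving out any one WT library other than dDAVP replicate 2 (limma adjusted p = 0.0681 to 0.0974).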

How the data were processed

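RNA was measured in 22 libraries of mpkCCD cells. Total RNA (1 ng) was turned into cDNA with SMART-Seq HT and 11 PCR cycles and into libraries with Nextera XT, per the labels' protocols, and reads were paired-end of 50 bp. The submitters' processing notes name STAR and RSEM without versions; genome build and annotation are not given in the sources used here. The authors deposited TPM per gene and library, in 55415 lines. The 980 lines that share a symbol were summed, which left 54514 entries. TPM keep no depth, so no count test, interval or floor was used.

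Tests used limma 3.58.1 in R 4.3.3 on log2(TPM + 1), which understates changes of low genes, for genes whose mean TPM reached 1, with a mean-variance trend, two-sided, with Benjamini-Hochberg adjustment over all genes tested and a call at an adjusted p under 0.05. The dDAVP fit used 6 WT libraries and the fraction fit 16 clone libraries with the clone as covariate. The script was tested on simulated data. The genes and the lists were chosen with earlier results of these data known. Named genes were the 9 genes, Aqp2 and GFP, called genes of the family, at most 3 rises and 3 falls per other list and comparison, and the 5 genes most like Psca. Alternatives changed the pseudocount, filter, scaling, moderation, libraries, clones and blocks. The 2 scalings, applied here to the TPM, were median-ratio and quantile. A list item is not reported here, and counts and medians leave it out.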

Additional observations from a re-analysis of the deposited data

Results flagged for a closer look

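Ly6a, the stem cell antigen Sca-1, moved in opposite directions in 2 clones. Every GFP-positive library of C43 (11.1 and 16.6 TPM) was above every GFP-negative library of C43 (8.46 and 7.99 TPM), whereas every GFP-positive library of C50 (0.99 and 1.63 TPM) was below every GFP-negative library of C50 (2.13 and 3.77 TPM). The fraction differences of 0.66 and -0.76 on the log2(TPM + 1) scale lie 1.42 apart. The difference between the clones was not tested, since the fraction values were in view when the gene was chosen. In C50 the levels were low, and how reads were divided among Ly6a and its paralogs was not measured here.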

How the results depend on the processing

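The number of genes called with dDAVP was 1198. It was 779 with all 22 libraries in one fit, 757 with median-ratio scaling, 442 without a filter, 691 without the trend, 122 with the replicate number as a block (98 higher, 24 lower), and 314 to 2038 on leaving out 1 library. Between the fractions 4626 genes were called, 2406 with clone means as replicates, 4259 with the replicate block, and 4170 to 6043 on leaving out 1 library. The span of Psca over clones was 2.12. It was 2.35 with a pseudocount of 0.1, 2.39 with median-ratio scaling, 2.32 with quantile normalization, and 1.92 to 2.31 on leaving out 1 library, the extremes without C50 GFP-positive replicate 1 and 2.

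The correlations of same-numbered libraries' deviations were -0.208, -0.0254 and -0.109 in WT cells, and 0.0582 (C1), -0.0168 (C11), 0.212 (C43) and 0.0827 (C50) in the clones. They were not above 0.1 for every pair, and the labels tie the numbers to no shared culture or day, so the libraries were not taken as paired. Under the block Ly6e (limma adjusted p = 0.0887), Lypd2 (limma adjusted p = 0.150), Itgb6, Ifit2, Mppe1, Upk3a and Muc4 missed the threshold with dDAVP and Aqp6 between the fractions, and no other call named in the text changed. With clone means as replicates Ly6g2 (limma adjusted p = 0.0505), Ly6g6d (0.0770), Lypd6 (0.0745), Pgap1 (0.0647), Ifit3 (0.0503), Aqp6 and Lrp2 missed it. The dDAVP difference of Psca turned sign with median-ratio scaling (0.047), quantile normalization (0.067) and without dDAVP replicate 2 (0.070), with -0.26 to 0.070 on leaving out 1 library. That of Lypd6b turned without dDAVP replicate 3 (-0.0017) and vehicle replicate 3 (-0.091), with -0.091 to 0.14 on leaving out 1 library. The cause was not tested. Lypd3 passed with dDAVP in 15 of 15 alternatives, Ly6e in 12, Lypd2 in 5 and Plaur in 0. Depth is unknown, so low levels such as those of Ly6c1 and Ly6d have no stated limit of detection.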
